A study of Homo sapiens with 4 samples.

Results

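The ADAM and ADAMTS genes encode metalloproteases and their protease-free relatives that act at the cell surface and in the extracellular matrix. In RNA from H9 cells, 32 such genes were measured among 15942 genes in all, of which 14064 carried a protein-coding RefSeq transcript. Members were the rows with a coding RefSeq transcript whose symbol was ADAM, ADAMTS or ADAMTSL followed by a number, which gave 11 ADAM, 17 ADAMTS and 4 ADAMTSL genes. H9 is an established human embryonic stem cell line, here grown on Matrigel in DMEM/F12 with E8. Cells received either a control siRNA (small interfering RNA) directed at luciferase, siLuc, or one directed at UPF1, siUPF1, with 2 libraries of each, so that the comparison asks how gene expression changes when UPF1 is lost. The treatment text, which is the same for every library, names an siRNA against UPF3A and a time course with the transcription inhibitor actinomycin D. It gives no time for a single library, so what the libraries share beyond the siRNA is not known. No label states whether replicate libraries were grown as separate cultures, so the p-values reflect the spread among these libraries alone, and that spread may be technical.

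ADAM proteins are membrane-anchored. Those with an intact metalloprotease domain cut other membrane proteins near the cell surface and so release growth factors, receptors and adhesion molecules, a process called ectodomain shedding. ADAMTS proteins are secreted and carry thrombospondin type 1 repeats, which hold them in the matrix, where they cut proteoglycans, procollagens and von Willebrand factor among others, while ADAMTSL proteins keep the repeats and lack the protease domain. UPF1 is the RNA helicase at the centre of nonsense-mediated RNA decay, which removes transcripts whose translation ends in an early or otherwise unusual position.

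The feature that sets the proteases apart from their relatives is the zinc-binding site, in which 3 histidines hold the catalytic zinc ion and a glutamate activates water. A search of the annotated coding sequences for codons of histidine, glutamate, any pair, histidine, any 5 and histidine found this site in 25 of the 32 members (78.1%) and in 62 of 13845 tested coding genes (0.448%). It was present in all 17 ADAMTS members and in all 8 ADAM members listed as proteases. No match was found in ADAM11, ADAM22, ADAM23 or the 4 ADAMTSL members. The coding sequences below run 5′ to 3′ and show the site in the members that cut proteoglycans. They also show it in ADAMTS14 and ADAMTS3, which process procollagens, and in ADAM10 and ADAM17, the best known shedding enzymes. ADAMTS14 was called higher and ADAMTS3 lower after UPF1 siRNA, the ADAMTS14 call being lost in 7 of 11 alternative fits. Capitals mark the codons of the first histidine, the glutamate, the second histidine, the eighth residue and the last histidine.
ADAMTS5: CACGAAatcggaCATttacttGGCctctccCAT
ADAMTS9: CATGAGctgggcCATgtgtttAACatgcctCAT
ADAMTS4: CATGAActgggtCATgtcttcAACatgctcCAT
ADAMTS20: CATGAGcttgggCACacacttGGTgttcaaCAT
ADAMTS1: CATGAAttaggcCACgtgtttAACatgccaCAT
ADAMTS15: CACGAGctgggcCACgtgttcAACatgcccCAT
ADAMTS8: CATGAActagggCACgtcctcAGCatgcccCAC
ADAMTS14: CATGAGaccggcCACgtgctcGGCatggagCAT
ADAMTS3: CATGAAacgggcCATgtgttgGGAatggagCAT
ADAM10: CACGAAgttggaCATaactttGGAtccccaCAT
ADAM17: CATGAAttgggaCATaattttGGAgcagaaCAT

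These sequences come from GENCODE release 29 transcripts on GRCh38, a later build than the hg19 on which the counts were made, and all are exonic coding sequence. The site of ADAMTS5 lies at codons 410 to 420 of 931, on the minus strand within chr21:26943525-26954748, which spans the intron between exons 2 and 3. That of ADAMTS1 lies on the minus strand within chr21:26841143-26841867 and is divided between exons 3 and 4. ADAMTS8 (minus strand, chr11:130416308-130416949) and ADAMTS15 (plus strand, chr11:130461612-130462109) are neighbours on the long arm of chromosome 11 and lie on opposite strands. In all 17 ADAMTS members an intron divided the site, whereas in 7 of 8 ADAM members it lay within exon 11, the exception being ADAM10, in which exons 9 and 10 share it. The eighth residue was glycine in 20 of the 25 sites, asparagine in 4 (ADAMTS1, ADAMTS4, ADAMTS9 and ADAMTS15) and serine in ADAMTS8. Those 4 asparagine sites were the only ones among the 62 genes with a match. All 4 genes belong to the proteoglycan-cutting group and rose after UPF1 siRNA, ADAMTS15 with a call lost in 4 of 11 alternative fits. The glycine-bearing ADAMTS5 and ADAMTS20 of that group also rose, ADAMTS20 with a call lost in 2 of 11 alternative fits, while ADAMTS8 fell. Among the 20 members with glycine, 8 rose, 3 fell and 9 did not pass. At the same threshold, an adjusted p under 0.05 in edgeR, 16.8% of all genes tested rose and 9.14% fell. A link between the residue and the change was not tested. A sequence match is a description and does not show that the protein is active.

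UPF1, the siRNA target, was measured first in every library. Its raw counts were 1936 in control a and 2053 in control b, the names used here for the controls because the table gives both columns 1 name, and 608 and 878 in siUPF1 replicates 1 and 2. On the scale of TMM-scaled counts per 1e+06 reads (CPM), UPF1 fell from 212 ± 10.1 to 69.5 ± 12.3 (SD, n = 2 per group), to 32.8% of the control level (edgeR adjusted p = 1.06e-102). Library totals ran from 8887239 to 11200973 counts. All 10 markers listed for undifferentiated embryonic stem cells were measured, and 5 of them (POU5F1, SOX2, NANOG, DNMT3B and ZFP42) fell. Their summed level was 2386 and 2238 CPM in the controls and 2114 and 1968 CPM in the siUPF1 libraries. Of 6 trophoblast and amnion markers 5 were tested and 3 rose (GATA3, CGA and IGFBP3), while KRT7 and TFAP2A did not pass. Their summed level was 37.8 and 39.0 CPM in the controls and 54.2 and 52.7 CPM after UPF1 siRNA. IGFBP3 made up most of it, with means of 21.6 and 30.5 CPM. CGA lay near the floor, with counts of 3 and 6 in the controls and 11 and 16 after UPF1 siRNA. Over all genes tested 16.8% rose and 9.14% fell. Of 7 fibroblast and mesenchyme markers 4 were tested and PDGFRB alone rose, while the list summed to 531 to 546 CPM in the controls and 543 to 565 CPM in the siUPF1 libraries. The endothelial markers KDR and TEK did not pass and summed to 227 to 243 CPM in the controls and 212 to 218 CPM after UPF1 siRNA. The leukocyte markers PTPRC, CD14 and CD3E, the endothelial markers PECAM1 and CDH5, the trophoblast marker HAND1 and the fibroblast markers COL3A1, LUM and DCN were not among the genes tested. The part of these marker levels in the values of the family was not tested, and in bulk RNA fewer cells of a type and less RNA per cell cannot be told apart.

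After UPF1 siRNA, more members of the family rose than fell. The call was an adjusted p under 0.05 in edgeR's quasi-likelihood test with Benjamini-Hochberg adjustment over all 15557 genes tested, and every adjusted p given here comes from it unless another tool is named. All 32 members passed the low-count filter. At this threshold 15 members rose (46.9%), 5 fell (15.6%) and 12 did not pass. Among all genes tested 16.8% rose and 9.14% fell, 25.9% together, against 62.5% of the members. The median log2 fold change was 0.18 over the members and -0.01 over all genes. Most changes were small. ADAMTS5 was the single member called higher by at least 2-fold and ADAMTSL1 the single one called lower by as much, where 2.53% and 0.926% of all genes were. In 17 members each siUPF1 value exceeded each control value, in 9 it lay below, and in 6 the groups overlapped. Of all genes 32.3% lay above and 31.1% below, 63.4% together, so the count below is close to that background and the count above exceeds it.

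**Figure D1:**
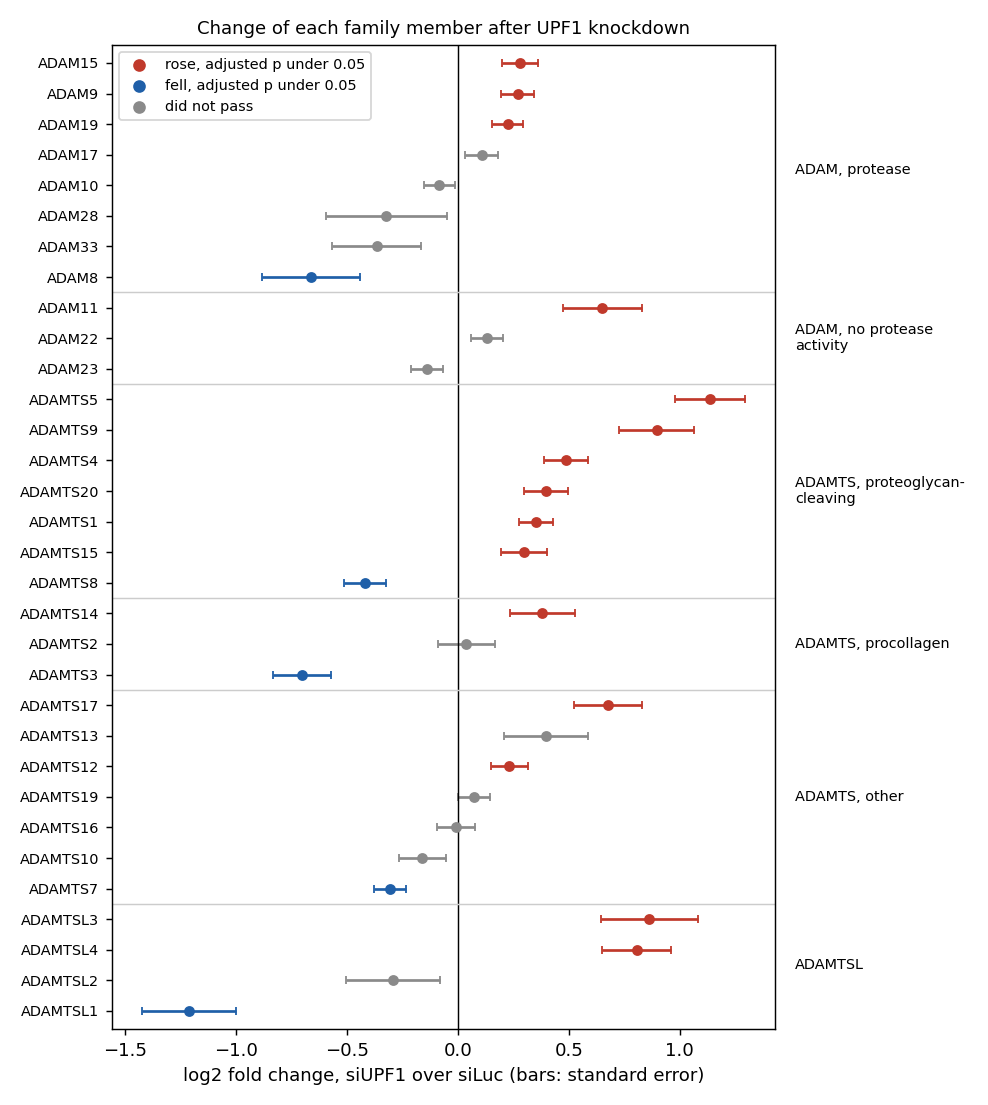
Log2 fold change of each of the 32 members, siUPF1 over siLuc, with bars of 1 SE from edgeR's quasi-likelihood fit, grouped by role; colour gives the call at an adjusted p of 0.05. ADAMTS5 (1.14) lies farthest to the right and ADAMTSL1 (-1.21) farthest to the left, and the proteoglycan-cutting ADAMTS genes lie to the right of 0 except ADAMTS8.

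The members differ from the typical gene in length and read density. Their median transcript length was 4948 bases against 2740 bases for all genes, and their median density was 0.0646 reads per transcript base and library against 0.172. Within the members' own range of length and of mean CPM, 20.3% of 6445 genes rose and 10.6% fell. That range was wide, from 3.32 to 187 CPM and from 2817 to 9632 bases. The genes within it were not matched to the members in their distribution of either. With the trend of each library on read density removed, 13 members rose and 6 fell, against 15.9% and 10.3% of all genes. The number of risers depended on the controls and on the tool. Without control a, 5 members rose and 3 fell, where 9.28% and 3.55% of all genes did. Without control b, 10 members rose and 4 fell, where 10.2% and 3.89% of all genes did. Without siUPF1 replicate 1, 3 members fell, where 9.82% of all genes did. DESeq2 called 6 members higher and 4 lower, where it called 8.19% and 2.99% of all genes. ADAMTS5, ADAMTS9, ADAMTSL4, ADAMTS4 and ADAMTS1 stayed past the threshold as risers in all 11 alternative fits, as did ADAMTSL1, ADAMTS3 and ADAMTS8 as fallers.

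With all 4 libraries in edgeR, every proteoglycan-cutting ADAMTS gene measured was called, though ADAMTS15 and ADAMTS20 were not called in every alternative fit. Of 7 members, 6 rose and 1 fell, where 16.8% and 9.14% of all genes did, with a median log2 fold change of 0.40. These enzymes cut aggrecan, versican and related large proteoglycans of cartilage, vessel wall and embryonic matrix. ADAMTS5, one of the main aggrecanases of cartilage, was counted 71 and 101 times in controls a and b and 202 and 223 times in siUPF1 replicates 1 and 2. In CPM this was 8.03 and 10.1 in the controls and 20.2 and 19.9 after UPF1 siRNA, a fold of 2.20 (log2 fold change 1.14, SE 0.16, edgeR adjusted p = 3.39e-11). The siUPF1 libraries lay close together, well above both controls.

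ADAMTS9, a versican-cutting protease with a C-terminal GON domain, had 9.05 and 8.08 CPM in the controls and 15.4 and 16.4 CPM in the siUPF1 libraries. It rose by 0.90 on the log2 scale (SE 0.17, edgeR adjusted p = 1.73e-06). ADAMTS20, the other GON-domain member, went from 30.0 and 34.6 CPM to 40.0 and 45.3 CPM, a log2 fold change of 0.40 (SE 0.10). For both genes the groups were apart, as in 63.4% of all genes tested, with the smaller relative gap in ADAMTS20. The ADAMTS20 call was lost without control a and with DESeq2 (highest adjusted p over the alternatives 0.131).

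ADAMTS4, the other main aggrecanase, stood at 30.2 and 31.6 CPM in the controls and 40.6 and 46.0 CPM after UPF1 siRNA (log2 fold change 0.49, SE 0.10, edgeR adjusted p = 1.66e-05). ADAMTS1, which cuts versican and acts in ovulation and vessel growth, stood at 71.7 and 74.7 CPM against 94.5 and 92.5 CPM (log2 fold change 0.35, SE 0.08, edgeR adjusted p = 4.49e-05). In both genes the controls differed from each other by far less than from the siUPF1 libraries. ADAMTS15, a close relative of these enzymes, measured 31.5 CPM in each control and 38.0 and 39.5 CPM in the siUPF1 libraries, a log2 fold change of 0.30 (SE 0.10, edgeR adjusted p = 0.0182). The ADAMTS15 call was lost in 4 of 11 alternative fits, those without either control, without siUPF1 replicate 2 and with DESeq2, with adjusted p-values up to 0.204.

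ADAMTS8 went the other way. This enzyme is related in sequence to ADAMTS1 and ADAMTS15 and has weak activity on aggrecan. Its level was 46.0 and 46.7 CPM in the controls and 31.5 and 37.7 CPM in siUPF1 replicates 1 and 2, a log2 fold change of -0.42 (SE 0.10, edgeR adjusted p = 0.000136). Both siUPF1 libraries lay below both controls, replicate 1 farther. Its neighbour ADAMTS15 thus differed from it in direction.

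**Figure D2:**
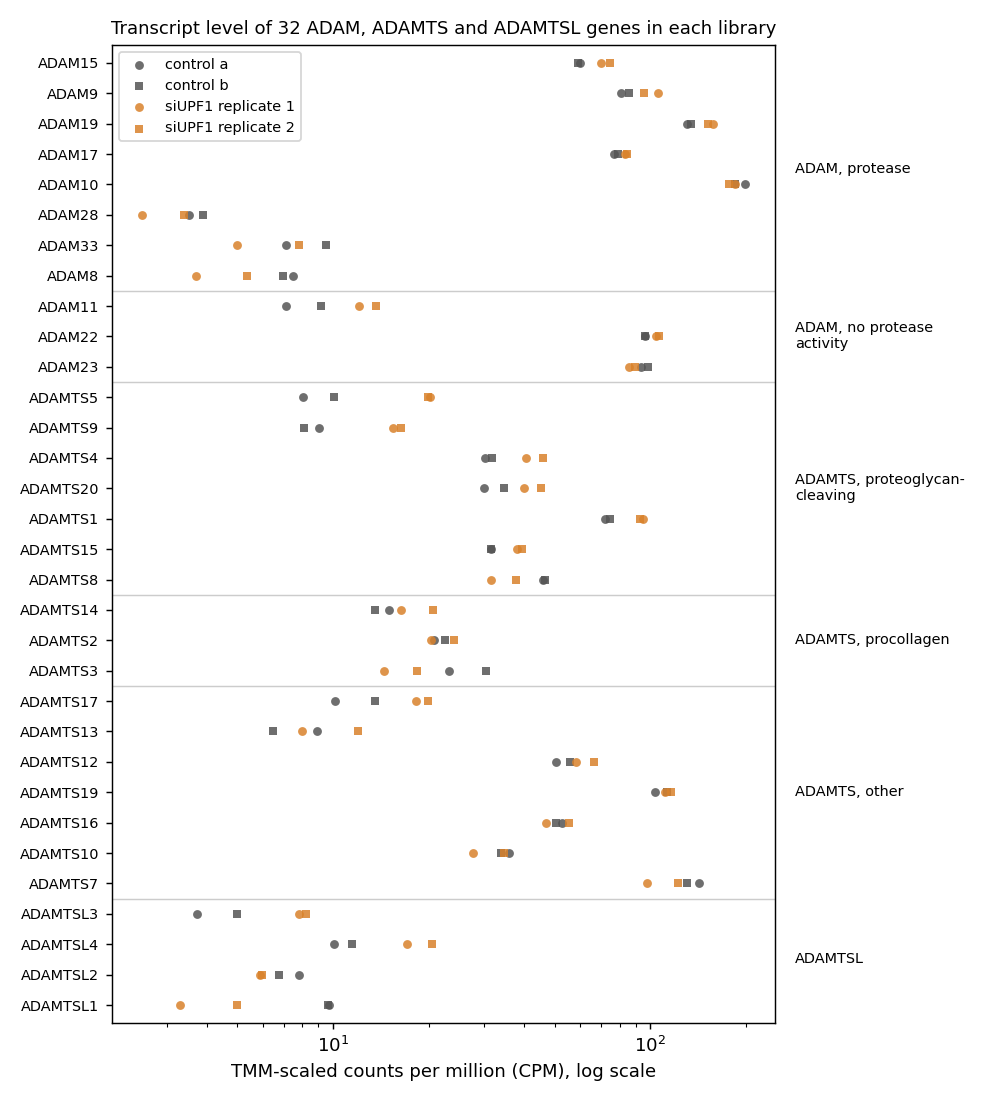
Level of every member in each library in CPM on a log axis, with grey points for the controls, orange points for the siUPF1 libraries and members grouped by role. The siUPF1 points of ADAMTS5 sit near 20 CPM, above control points of 8.03 and 10.1, and those of ADAMTSL1 sit at 3.30 and 4.99, below control points near 9.7.

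Of the 3 procollagen N-proteinases, which trim the amino-terminal propeptide from fibrillar procollagens, 1 rose, 1 fell and 1 did not pass. Over all genes 16.8% rose and 9.14% fell. ADAMTS3, known also for activating the lymphatic growth factor VEGFC, fell from 23.2 and 30.3 CPM in the controls to 14.5 and 18.4 CPM (log2 fold change -0.70, SE 0.13, edgeR adjusted p = 1.27e-06). Its controls differed from each other as well, but both exceeded both siUPF1 libraries. ADAMTS14 had 15.0 and 13.6 CPM in the controls and 16.4 and 20.7 CPM in the siUPF1 libraries, a log2 fold change of 0.38 (SE 0.15, edgeR adjusted p = 0.0400). That rise lay near the threshold and was lost in 7 of 11 alternative fits, with adjusted p-values up to 0.409, and its siUPF1 libraries differed from each other by more than replicate 1 did from control a. ADAMTS2, the enzyme lacking in the dermatosparactic form of Ehlers-Danlos syndrome, had overlapping groups, with 20.8 and 22.5 CPM against 20.4 and 24.1 CPM (edgeR adjusted p = 0.858).

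Among the 7 other ADAMTS members, 2 rose, 1 fell and 4 did not pass. Over all genes 16.8% rose and 9.14% fell, so these counts were near the background. ADAMTS17, a gene of Weill-Marchesani-like syndrome, rose from 10.2 and 13.6 CPM to 18.3 and 19.9 CPM (log2 fold change 0.68, SE 0.15, edgeR adjusted p = 9.35e-05). ADAMTS12, which cuts cartilage oligomeric matrix protein, rose from 50.6 and 55.7 CPM to 58.4 and 66.4 CPM, a log2 fold change of 0.23 (SE 0.08, edgeR adjusted p = 0.0253). The gap for ADAMTS12 was narrow, and its call was lost in 5 of 11 alternative fits, with adjusted p-values up to 0.421. The ADAMTS17 call was lost without control a (edgeR adjusted p = 0.0859).

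ADAMTS7, the closest relative of ADAMTS12 and also a protease of cartilage oligomeric matrix protein, fell. It had 142 and 130.1 CPM in the controls and 97.5 and 122 CPM in siUPF1 replicates 1 and 2, a log2 fold change of -0.31 (SE 0.07, edgeR adjusted p = 0.000170). Replicate 2 lay only a little below control b. Without siUPF1 replicate 1 the log2 fold change was -0.15 (edgeR adjusted p = 0.0983), and without control a it was -0.24 (edgeR adjusted p = 0.0976). Reads of ADAMTS7 can also match its near-identical pseudogene ADAMTS7P1, which had a row of its own with counts of 265 and 284 in the controls and 219 and 277 after UPF1 siRNA (log2 fold change -0.32, edgeR adjusted p = 0.0324). The sources used here do not state how such reads were divided, so the values of both are uncertain.

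The 4 other ADAMTS members that did not pass had overlapping groups. ADAMTS13, the protease of von Willebrand factor, ranged from 6.48 to 8.94 CPM in the controls and from 8.0 to 12.0 CPM in the siUPF1 libraries (log2 fold change 0.40, edgeR adjusted p = 0.104). ADAMTS10, a protein of fibrillin microfibrils, had a log2 fold change of -0.16, ADAMTS16 of -0.01 and ADAMTS19 of 0.07. ADAMTS19 shares its locus with the antisense gene ADAMTS19-AS1, and without stated strand use their reads cannot be told apart. ADAMTS6 and ADAMTS18 were not analysed here.

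Of the 8 ADAM members listed as proteases, 3 rose, 1 fell and 4 did not pass, where 16.8% of all genes rose and 9.14% fell. ADAM9, a widely expressed protease that sheds several membrane proteins, had 81.0 and 85.7 CPM in the controls and 106 and 95.8 CPM after UPF1 siRNA (log2 fold change 0.27, SE 0.07, edgeR adjusted p = 0.00195). ADAM15, which carries an integrin-binding RGD sequence in its disintegrin domain, had 60.1 and 59.4 CPM against 70.1 and 74.7 CPM (log2 fold change 0.28, SE 0.08, edgeR adjusted p = 0.00368). ADAM19, a sheddase of neuregulin, had 130.3 and 135 CPM against 158 and 152 CPM (log2 fold change 0.22, SE 0.07, edgeR adjusted p = 0.00812). The groups were apart in all 3 genes, as they were in 63.4% of all genes tested, at folds of 1.21, 1.21 and 1.17. All 3 calls were lost with DESeq2 and without control a, and those of ADAM15 and ADAM19 also without control b.

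ADAM10 and ADAM17, the principal sheddases of Notch receptors and of tumour necrosis factor and EGF-family ligands, were not called. ADAM10 had 199 and 185 CPM in the controls and 185 and 177 CPM after UPF1 siRNA (log2 fold change -0.08, SE 0.07, edgeR adjusted p = 0.410). ADAM17 had 76.8 and 78.9 CPM against 83.4 and 84.4 CPM (log2 fold change 0.11, SE 0.08, edgeR adjusted p = 0.312). For ADAM10 the higher siUPF1 library nearly met the lower control, and for ADAM17 the groups were apart but the difference did not pass.

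ADAM8, a protease best known from leukocytes, was the ADAM member that fell. It was counted 66 and 70 times in the controls and 37 and 60 times in siUPF1 replicates 1 and 2, or 7.23 ± 0.342 against 4.52 ± 1.16 CPM (SD, n = 2; log2 fold change -0.66, SE 0.22, edgeR adjusted p = 0.0147). Replicate 1 was farther from the controls than replicate 2. The call was lost in 4 of 11 alternative fits, with DESeq2 and without each library other than siUPF1 replicate 2, with adjusted p-values up to 0.233. ADAM28 and ADAM33, both below 10 CPM in every library, had log2 fold changes of -0.32 (SE 0.27) and -0.37 (SE 0.20) and did not pass. ADAM12, ADAM20, ADAM21 and ADAM30 were not analysed here.

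ADAM11, ADAM22 and ADAM23 lack protease activity and serve in neurons as receptors of secreted LGI proteins. ADAM11 rose, from counts of 63 and 92 in the controls to 121 and 153, or from 7.13 and 9.18 CPM to 12.1 and 13.6 CPM (log2 fold change 0.65, SE 0.18, edgeR adjusted p = 0.00184). The siUPF1 libraries lay above the controls, which also differed from each other. Without control a the call was lost (highest adjusted p over the alternatives 0.167), as it was with DESeq2. ADAM22 (log2 fold change 0.13, SE 0.07) and ADAM23 (-0.14, SE 0.07) did not pass, at adjusted p-values of 0.174 and 0.159 in edgeR's test. Their groups did not overlap, as in 63.4% of all genes tested, ADAM22 being higher and ADAM23 lower in both siUPF1 libraries. ADAM2, ADAM7, ADAM18, ADAM29 and ADAM32 were not analysed here.

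The ADAMTSL proteins, which bind matrix and fibrillin microfibrils, included the member that fell most. Of 4 members 2 rose, 1 fell and 1 did not pass, where 16.8% of all genes rose and 9.14% fell. ADAMTSL1, also named punctin, had counts of 86 and 97 in the controls and 33 and 56 in siUPF1 replicates 1 and 2. In CPM it went from 9.73 and 9.68 to 3.30 and 4.99, a 2.32-fold lower level (log2 fold change -1.21, SE 0.21, edgeR adjusted p = 2.64e-07). The controls were nearly equal and both siUPF1 libraries lay below them. The deposited RPKM values imply a transcript of 7821 bases in siUPF1 replicate 1 and 3448 bases in replicate 2 for this row, so no level per length was derived for ADAMTSL1. Whether its counts refer to the same transcript in every library is not known, so its fold change is uncertain too.

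ADAMTSL4, which binds fibrillin-1 and is mutated in inherited lens dislocation, had 10.1 and 11.5 CPM in the controls and 17.1 and 20.6 CPM in the siUPF1 libraries (log2 fold change 0.81, SE 0.16, edgeR adjusted p = 3.34e-06). ADAMTSL3 was counted 33 and 50 times against 78 and 92 times, or 3.73 and 4.99 CPM against 7.80 and 8.2 CPM (log2 fold change 0.86, SE 0.22, edgeR adjusted p = 0.000733). Both genes had all siUPF1 values above all control values, as had 32.3% of all genes tested. The ADAMTSL3 call was lost without control a and with DESeq2, with an adjusted p of up to 0.0980. ADAMTSL2, mutated in geleophysic dysplasia, did not pass (log2 fold change -0.29, SE 0.21), and its reads can also match a near-identical copy. ADAMTSL5 was not analysed here.

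**Figure D3:**
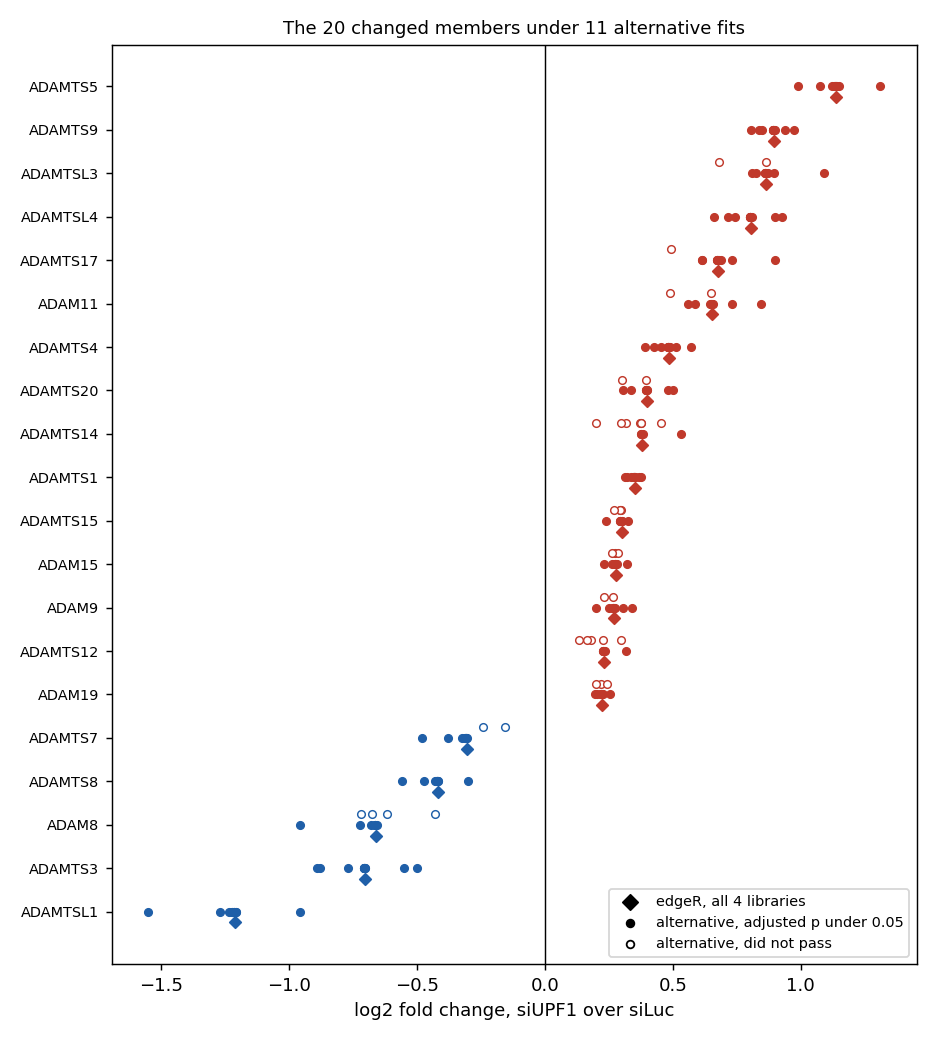
Log2 fold change of each of the 20 called members, as a diamond with all 4 libraries in edgeR, as filled circles in alternative fits that kept the call and as open circles, set slightly higher, in those that lost it. No called member changed sign, and the values of ADAMTS5 stayed between 0.99 and 1.31.

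Levels were compared between genes only per kilobase (kb) of transcript, for the 27 members with 1 agreed length. In the controls ADAM10 was highest at 38.3 CPM per kb, followed by ADAMTS7 (24.9), ADAM17 (22), ADAMTS19 (21.6) and ADAM15 (21.2). The last 3 of these lay within 1 unit of each other and their order is not resolved by 2 libraries. After UPF1 siRNA ADAM10 stood at 36.1 CPM per kb and ADAM15 at 25.7, while ADAMTS7 stood at 20.1. The 2 members with the strongest rises were expressed at low levels, ADAMTS5 going from 0.940 to 2.08 CPM per kb and ADAMTS9 from 1.20 to 2.23. ADAMTSL3 was the lowest of the 27, at 0.599 CPM per kb in the controls and 1.10 in the siUPF1 libraries.

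The siUPF1 libraries differed from each other across the family. Replicate 2 exceeded replicate 1 in 27 of 32 members (84.4%), against 49.7% of all genes, with a median log2 difference of 0.17 over the members. Control b exceeded control a in 21 members (65.6%), against 50% of all genes. All 5 fallers were lower in replicate 1, at a median of -0.88 relative to the control mean on the log2 scale against -0.43 in replicate 2. Of the 15 risers 11 were higher in replicate 2, at a median of 0.53 against 0.37 in replicate 1. Leaving out replicate 1 gave more risers and fewer fallers among the members than leaving out replicate 2. Over all genes it also gave more risers, while the shares of fallers were nearly equal. The part of this shift in the calls was not tested.

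Transcript features linked to nonsense-mediated decay could be assigned to 22 members whose annotated transcript agreed in length with the table. An AUG upstream of the coding sequence was present in 9 (40.9%), against 51.2% of 10609 coding genes. Among the risers 4 of 13 had one (30.8%), against 54.7% of all coding genes that rose. The matched transcripts of ADAMTS14, ADAMTS15, ADAMTS20 and ADAMTS19 have an annotated 5′ untranslated region of 0 nt. No upstream AUG could be found in them, and all but ADAMTS19 are risers. Such transcripts were kept in every share, so the low shares do not show that the members lack upstream AUGs. A 3′ untranslated region of at least 2214 nt, the upper quartile, was found in 5 members (22.7%, against 25%). Among the risers 4 of 13 had one (30.8%), against 32.4% of all coding genes that rose. The matched transcript of ADAMTS12, a riser, has an annotated 3′ untranslated region of 7 nt and was kept in these shares. None of the 22 members had an exon junction more than 50 nt after the stop codon, which 0.716% of coding genes had. Only transcripts annotated as protein-coding were searched for such a junction, and annotated decay targets carry a separate type. The search could therefore find few junctions in any set of genes, and it does not show that the family lacks them. An isoform annotated as a decay target existed for 10 members (45.5%, against 41.8%) and for 6 of 13 risers (46.2%, against 43.6% of all risers). With 13 risers, differences of a few members between these shares could not be resolved.

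Genes that mature, localise or inhibit these proteases included 8 that rose and none that fell among 20 tested, against 16.8% and 9.14% of all genes, with a median log2 fold change of 0.11. With the density trend removed, 6 rose and 1 fell. POFUT2, which adds O-fucose to thrombospondin repeats and so aids ADAMTS secretion, rose by 0.41 on the log2 scale, from 87.3 ± 2.74 to 116 ± 5.27 CPM (SD, n = 2). PCSK7, a proprotein convertase of the class that removes inhibitory propeptides, rose by 0.33, from 106 ± 0.0883 to 133 ± 2.12 CPM. TIMP3, the matrix-bound inhibitor of ADAM17 and of aggrecanases, rose by 0.39, from 20.2 ± 2.48 to 26.5 ± 1.57 CPM, a call that was lost in 4 of 11 alternative fits. Without control a 2 of the 20 rose, without control b 3 and without siUPF1 replicate 2 4, and DESeq2 called 2. Of all genes 9.28% rose without control a, 10.2% without control b and 8.19% with DESeq2, so in those fits the list was near the background.

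Membrane proteins known to be shed by ADAM proteases included 10 that rose and 2 that fell among 24 tested. Of all genes 16.8% rose and 9.14% fell, so the count of fallers was near the background. EGF, the precursor of epidermal growth factor, doubled from 29 ± 0.0480 to 57.9 ± 0.520 CPM (SD, n = 2; log2 fold change 1.0). ALCAM, an adhesion molecule, rose by 0.65, from 76.0 ± 5.92 to 119 ± 12.2 CPM, and the prion protein gene PRNP rose by 0.65, from 68.2 ± 1.82 to 107 ± 12.1 CPM. The fallers were NOTCH1, with overlapping groups, and its ligand gene JAG2. Neither was called without control a, with DESeq2 or with the density trend removed, and 1 was called without control b. Gamma-secretase, the complex that cuts the stubs left by shedding, had 1 riser among 6 genes, APH1B (log2 fold change 0.28), while NCSTN (-0.12) did not pass. The APH1B call was lost without either control and with DESeq2.

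Among 17 tested matrix substrates and partners of ADAMTS and ADAMTSL proteins, 6 rose and 4 fell, where 16.8% and 9.14% of all genes did. THBS1, whose thrombospondin repeats give the family part of its name, rose by 1.29 on the log2 scale, from 86.8 ± 7.13 to 213 ± 13.5 CPM (SD, n = 2). FBN1, fibrillin-1, rose by 0.69, from 53.5 ± 3.27 to 86.3 ± 1.81 CPM, and HAPLN1, a link protein that binds proteoglycans to hyaluronan, rose by 0.86, from 21.8 ± 4.44 to 40.0 ± 2.48 CPM. ACAN, COL5A1, BGN and HAPLN3 fell, ACAN with overlapping groups. VCAN, the versican gene, did not pass, at 742 ± 54.5 against 690.3 ± 37.7 CPM (log2 fold change -0.10). Without either control, or without siUPF1 replicate 1, 2 of the list fell, and DESeq2 called 1 faller.

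The other secreted or surface metalloproteases, the MMPs and astacins, had 4 risers and 2 fallers among 15 tested, where 16.8% of all genes rose and 9.14% fell. DESeq2 called 2 risers, and the filter of 5 CPM left 3 risers and 1 faller. MMP24, a membrane-type enzyme, rose by 1.59 on the log2 scale, from 33.7 ± 4.35 to 102 ± 9.59 CPM (SD, n = 2), and MMP19 rose by 1.89, from 5.85 ± 0.755 to 21.9 ± 1.06 CPM. MMP9, a gelatinase, fell by 1.02, from 38.1 ± 1.49 to 18.8 ± 1.26 CPM. MMP10 and TLL2 also rose and TLL1 fell. MMP10 lay near the floor, with counts of 6 and 6 in the controls and 30 and 21 after UPF1 siRNA. The median log2 fold changes of the lists were 0.11 for the shed proteins, 0.10 for gamma-secretase, 0.03 for the matrix list and 0.05 for the MMPs and astacins, beside 0.18 for the ADAM, ADAMTS and ADAMTSL members.

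**Figure D4:**
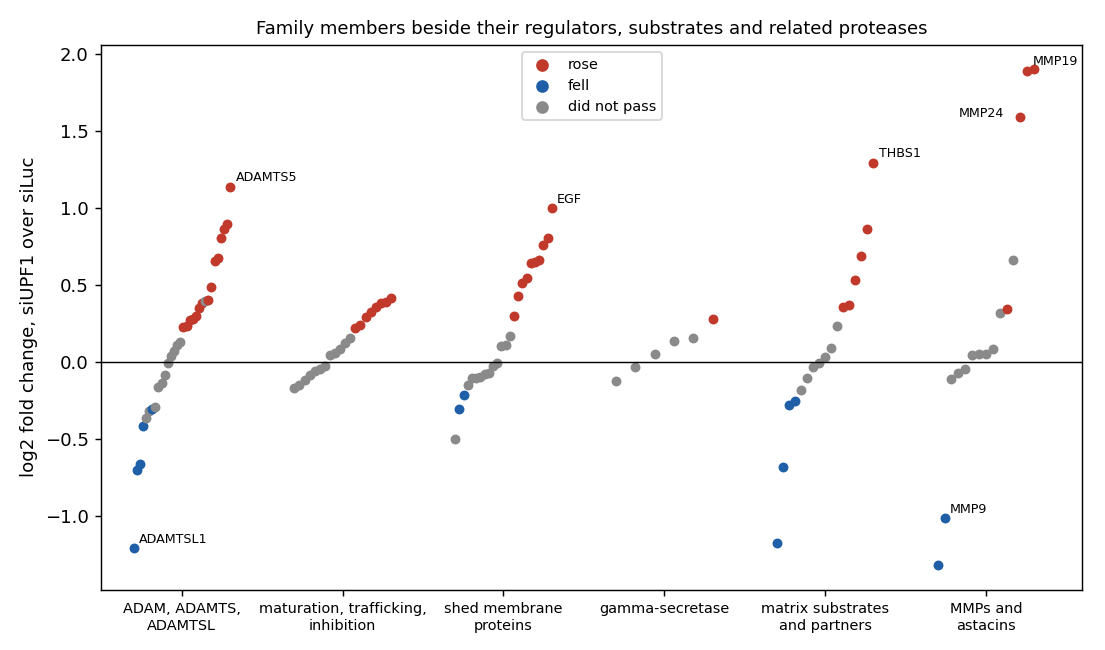
Log2 fold changes, siUPF1 over siLuc, of the 32 family members and of the 5 lists of related genes, 1 point per gene, ordered within each list and coloured by call. The 8 coloured points of the maturation list are all above 0, while the matrix list reaches from THBS1 (1.29) to BGN (-1.18).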

How the data were processed

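Total RNA from 4 libraries of H9 cells (2 siLuc, 2 siUPF1) was sequenced. The authors deposited read counts per gene, whole numbers without normalization, in 1 table for the whole series. The authors also deposited RPKM values (reads relative to library size and kilobases of transcript), of which only those of siUPF1 were used, to derive transcript length. STAR, DESeq2 and hg19 are named in the submitters' processing notes, without versions. The sources used here do not state how multimapping reads and strand were handled. Both control columns carry 1 name, so they stand for the group without a replicate number, and the 2 control RPKM columns were left unused.

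The members and gene lists were chosen with earlier results of these data known. Counts were tested with edgeR 4.0.16 in R 4.3.3 (glmQLFit, glmQLFTest, two-sided, TMM, filterByExpr, Benjamini-Hochberg adjustment at 0.05). The filter kept 15557 genes and left out 385. CPM values are TMM-scaled, and the SE is the log2 fold change divided by the square root of F. Replicates were no copies of each other, since their counts differed beyond sampling noise (chi-square per degree of freedom 1.7 for controls and 2.85 for siUPF1). The spread was still small, with edgeR's estimate of the coefficient of variation between replicates beyond sampling noise at 4.47%. Neither value shows whether replicates were separate cultures. Tested on simulated counts for 15557 genes with 200 changed, the fit recovered 89% of 2-fold and 75% of 1.41-fold changes with 7 false calls. The simulation drew each gene independently at the spread estimated from these data and held no shift shared between genes. It therefore checks the code and does not give the rate of false calls in the real libraries. Lengths agreeing within 10% between siUPF1 libraries counted as 1 length.

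Named genes were the called members, the 5 with the highest level per length, members in counts of 5 or fewer, and 3 genes of smallest p per list, of which 1 is not reported here. Other list genes and uncalled members were named after their values were seen. Alternatives were DESeq2 1.42.0, limma-voom (limma 3.58.1), RLE factors, unscaled library size, no filter or one of 5 CPM in 2 libraries, thresholds of 0.1 for the adjusted p or 2 for the fold, leaving out each library, and removal of the read density trend (loess, span 0.3).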

Additional observations from a re-analysis of the deposited data

How the results depend on the processing

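Over 11 alternative fits of the members, 310 of 351 values kept their side of the threshold, 37 lost a call, 4 gained one and no called value changed sign. With 1 library left out, the members called ranged from 5 to 16 risers and from 3 to 7 fallers, all genes from 1443 to 2760 and from 553 to 1527, and the related lists from 17 to 28 (29 with all libraries) and from 4 to 7 (8 with all libraries). The lowest counts were those without control a, equalled for fallers among the members without siUPF1 replicate 1. There the spread of the lone library is taken from the other group. DESeq2 called 6 members, 1274 genes and 16 list genes higher, and 465 genes and 3 list genes lower. With a fold of at least 2, the counts were 1 member up and 1 down, 394 and 144 genes, and 4 and 3 list genes. The cause of these differences was not tested. ADAM33 and ADAMTS10 passed without siUPF1 replicate 2, ADAMTS13 without replicate 1 and ADAM23 with the density trend removed. No paired analysis was possible because both control columns carry the same name and no replicate number. Depth limits members with low counts, such as ADAM28 with 25 to 39.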

Other observations

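Noncoding rows with ADAM names lay outside the rule. ADAM1A, listed without a coding transcript, was counted 148 and 178 times in the controls and 230 and 241 times after UPF1 siRNA, a log2 fold change of 0.36 (SE 0.14, edgeR adjusted p = 0.0322). The pseudogene ADAM20P1 had 21 and 37 counts against 45 and 39 and did not pass (log2 fold change 0.37, edgeR adjusted p = 0.324). The antisense gene ADAMTS19-AS1 had 53 and 62 counts against 49 and 74 (log2 fold change -0.08, edgeR adjusted p = 0.831). ADAM1A had both siUPF1 libraries above both controls, whereas the groups of the other two overlapped.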
